A study of Mus musculus with 4 samples.

Results

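SIBLING proteins (small integrin-binding ligand N-linked glycoproteins) and mineral-binding Gla proteins were followed in mBMSCs, stromal cells cultured from mouse bone marrow, after knockdown of Zbp1, the gene of the nucleic acid sensor Z-DNA binding protein 1. The genes were chosen by name: Ibsp, Spp1, Dmp1, Mepe, Bglap, Bglap2, Mgp and Phex. All 8 were found among the 24346 gene rows of the FPKM table (fragments per kilobase, normalised to how many fragments of the sample were mapped). The cells came from mice labelled as C57BL/6 and 3 months old, which the methods describe as wild-type C57BL/6J. siScr cells had been transfected with scramble siRNA and siZBP1 cells with siRNA targeting Zbp1, both with Lipofectamine RNAiMAX, and RNA was taken 72 h later from 2 samples of each group. The comparison asks how the depletion of Zbp1 altered the transcripts of these bone matrix proteins. It is not stated whether the replicates came from separate mice or cultures, so that p-values measure only the spread between these samples.

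Bone matrix is made of collagen fibrils into which calcium phosphate crystals are deposited, and SIBLING proteins are acidic, phosphorylated secreted proteins that bind those crystals and, through an RGD motif, the integrins of cells. Bone sialoprotein and DMP1 favour mineral formation, whereas phosphorylated osteopontin and MGP restrain it. Osteocalcin and MGP bind calcium through glutamate residues that are carboxylated by a vitamin K dependent enzyme. PHEX is a membrane protease of osteoblasts and osteocytes that degrades mineral-inhibiting peptides of this family.

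The members differed in direction: Ibsp, Bglap, Bglap2 and Mgp were lower in siZBP1 cells and Spp1 was higher. Limma, a linear model with a variance shared across genes, was applied to log2(FPKM + 1) of the 11959 genes with a mean of at least 1 FPKM, with p-values adjusted by the Benjamini-Hochberg method over all of them. By limma at an adjusted p of 0.05, 4 of the 5 members tested were lower and 1 was higher, where 14.8% of all genes tested were lower and 13.5% higher. The values of the groups did not overlap for 5 members that were lower and 1 that was higher, against 29.3% and 29.0% of all genes with any signal. By the ratio of the group means, 6 of the 7 members with a signal were over 1.5-fold lower and 1 was over 1.5-fold higher, against 13.8% and 10.7% of genes. These 6 include Dmp1, whose values overlapped between the groups. The 3 members Dmp1, Phex and Mepe were below the filter and were not tested by limma. Bglap passed the filter only through its level in siScr cells, so that the share of tested members called is not a result over all 8. Without siZBP1 replicate 1 the limma calls over the whole table fell from 1766 lower and 1618 higher to 23 and 22, and without siZBP1 replicate 2 to 38 and 22. No member passed the adjusted threshold in either of these fits. Of the genes of the lists described further on, only Panx3, Acta2, Cnn1 and Tagln passed in both.

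**Figure D1:**
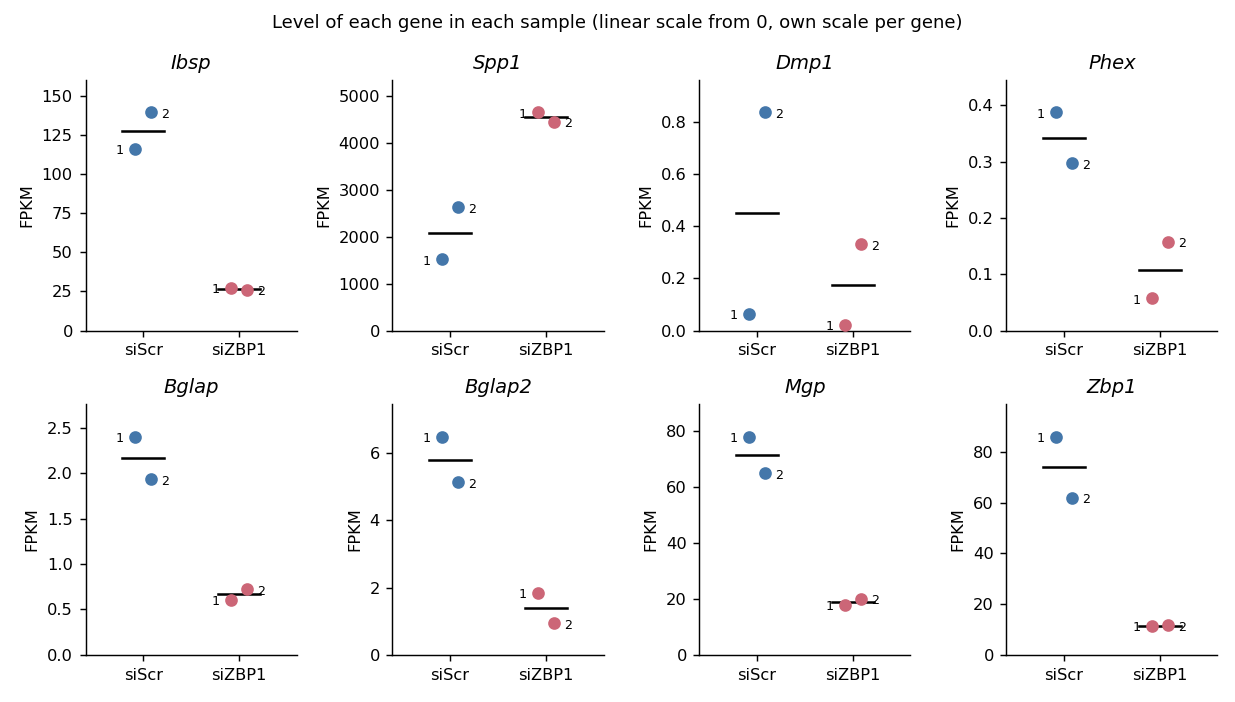
FPKM of Ibsp, Spp1, Dmp1, Phex, Bglap, Bglap2, Mgp and the targeted gene Zbp1 in each sample, as points numbered by replicate with a bar at the group mean, on a linear axis from 0 for each gene. Ibsp fell from 116 and 139 to 27.5 and 25.9 FPKM and Spp1 rose from 1516 and 2625 to 4651 and 4447 FPKM, while the points of Dmp1 overlap between the groups.

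Zbp1, the targeted gene, was at 86.0 and 62.0 FPKM in siScr cells and at 11.5 and 11.6 FPKM in siZBP1 cells, so that it was lower in both samples labelled as depleted (limma log2 fold change of -2.56, adjusted p = 0.00322). Like the members, Zbp1 missed the threshold without siZBP1 replicate 1 (limma adjusted p = 0.0748) and without siZBP1 replicate 2 (limma adjusted p = 0.0654). The depth was not given, and the steps between low FPKM values of genes over 3 kb gave a rough estimate of 11 to 22 M fragments per sample. Both mesenchymal and macrophage transcripts were abundant in the culture. Col1a2 was at 1806 to 2092 FPKM and Adgre1, the macrophage antigen F4/80, at 279 to 320 FPKM over the samples. The 13 mesenchymal markers in the table ranged widely in level. Pdgfra and Lepr were at 3.97 FPKM or less in every sample. Other markers of this list were far higher, with Itgb1 at 377 to 416 FPKM and Pdgfrb at 32.0 to 46.2 FPKM. Col3a1 reached 296 FPKM. Fewer cells of a type and less RNA per cell cannot be told apart in these bulk samples.

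Ibsp encodes bone sialoprotein, an early product of differentiating osteoblasts that nucleates mineral. It lies on chromosome 5 of GRCm38 (GENCODE M21) from 104299171 to 104311469 on the plus strand, with 7 exons. Ibsp was at 116 and 139 FPKM in the siScr replicates and at 27.5 and 25.9 FPKM in the siZBP1 replicates. Both siZBP1 samples were far below both siScr samples, and replicates of a group differed by at most 1.20 times. Mean FPKM was 128 ± 16.4 (SD, n = 2) with siScr and 26.7 ± 1.10 (SD, n = 2) with siZBP1, which is 4.79-fold lower. By limma, the log2 fold change of Ibsp was -2.21 with a standard error of 0.097 (adjusted p = 0.00221). In level, Ibsp ranked 558 of 24346 genes in siScr cells and 3110 in siZBP1 cells. Without siZBP1 replicate 1 its log2 fold change was -2.25 (limma adjusted p = 0.0639) and without replicate 2 it was -2.17 (limma adjusted p = 0.0557).

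The promoter of Ibsp is shown because this gene had the largest fold change of the members, and those of Bglap and Spp1 are shown beside it because they fell and rose, respectively. The sequences are from RefSeq (GRCm38.p6) and cover the 250 bases before the start site, written 5′ to 3′ on the strand of the gene. Capitals mark a TATA box (TATAAA), a Runx core (TGTGGT), a TCF/LEF core (CTTTGAA or CTTTGAT or CTTTGTA or CTTTGTT) or an AP-1 site (TGANTCA), each searched on both strands. The window of Ibsp is chr5:104299037-104299286 on the plus strand, that of Bglap is chr3:88384467-88384716 on the minus strand and that of Spp1 is chr5:104434861-104435110 on the plus strand. Distances are counted from the RefSeq start sites. For Ibsp this site is 104299287, inside the gene that GENCODE M21 begins at 104299171, so that part of its window lies within that gene model.
Ibsp: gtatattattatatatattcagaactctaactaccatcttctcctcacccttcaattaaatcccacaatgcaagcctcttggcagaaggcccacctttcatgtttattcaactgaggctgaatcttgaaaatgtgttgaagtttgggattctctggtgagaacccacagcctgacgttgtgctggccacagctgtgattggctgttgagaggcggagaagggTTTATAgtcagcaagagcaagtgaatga
Bglap: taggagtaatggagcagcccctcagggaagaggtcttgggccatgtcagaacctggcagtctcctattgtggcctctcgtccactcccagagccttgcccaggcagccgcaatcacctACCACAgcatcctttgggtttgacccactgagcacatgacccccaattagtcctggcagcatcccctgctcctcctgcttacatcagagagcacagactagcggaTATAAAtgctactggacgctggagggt
Spp1: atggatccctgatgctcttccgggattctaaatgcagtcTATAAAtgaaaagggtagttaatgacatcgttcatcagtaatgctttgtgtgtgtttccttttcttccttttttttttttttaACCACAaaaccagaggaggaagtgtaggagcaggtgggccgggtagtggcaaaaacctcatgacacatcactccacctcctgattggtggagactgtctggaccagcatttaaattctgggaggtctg

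In Ibsp the single marked stretch is a TATA box on the opposite strand, 28 to 23 bases before the start, the inverted TATA box for which the bone sialoprotein promoter is known. In Bglap a TATA box stood 27 to 22 bases and a Runx core on the opposite strand 132 to 127 bases before the start. In Spp1 a Runx core on the opposite strand was found 128 to 123 bases before the start, at nearly the same distance as in Bglap. The letters of a TATA box stood 211 to 206 bases before the start of Spp1, farther away than in Ibsp and Bglap. Runx2, the transcription factor that binds this core, is the master regulator of osteoblast formation. The Runx core was thus present in a member that fell and in one that rose, and was absent by these letters from the window of Ibsp.

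Of the 8 members, 6 had at least 1 window in the RefSeq table, with 8 windows in all. The Runx core was in 4 of these 8 windows (of Bglap, Dmp1, Mepe and Spp1), where 14.0% of all 32851 promoter windows held it. The letters of the TATA box, counted at any position, were also found in 4 of the 8 (of Bglap, Ibsp, Mepe and Spp1), against 12.4% of all windows. The matches of Bglap and Ibsp lay close to the start. That of Spp1 lay 211 to 206 bases before it, and that of Mepe 173 to 168 bases before it on the opposite strand. The TCF/LEF core, bound by the partners of β-catenin, was found in 1 of the 8, a further window of Spp1 that precedes an alternative start inside the gene, against 14.8% of all windows. The AP-1 site was found in 0 of the 8, against 6.75% of all windows. The shorter core TGTGG was in 6 of the 8 windows, that of Ibsp included, and in 49.3% of all windows.

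Spp1 encodes osteopontin, a SIBLING protein that is also a major secreted product of macrophages and that binds integrins and CD44. It lies on chromosome 5 from 104435118 to 104441050 on the plus strand. Spp1 was at 1516 and 2625 FPKM in the siScr replicates and at 4651 and 4447 FPKM in the siZBP1 replicates. The groups did not overlap, but the siScr replicates differed by 1.73 times and the siZBP1 replicates by 1.05 times. Mean FPKM was 2071 ± 784 (SD, n = 2) with siScr and 4549 ± 144 (SD, n = 2) with siZBP1, which is 2.20-fold higher. By limma, the log2 fold change of Spp1 was 1.19 with a standard error of 0.27 (adjusted p = 0.0356). This call was lost in 4 of 12 other settings with all samples, with the highest limma adjusted p of 0.159 under a robust variance. It was also lost without siZBP1 replicate 1 (limma adjusted p = 0.204) and without siZBP1 replicate 2 (limma adjusted p = 0.173), and without siScr replicate 1 its log2 fold change was 0.79 rather than 1.58 without siScr replicate 2.

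Spp1 was the most abundant member in every sample, ranking 16 among all genes in siScr cells and 6 in siZBP1 cells. Its FPKM was 13.0 and 18.8 times that of Ibsp in the siScr replicates and 169 and 172 times in the siZBP1 replicates. Spp1 supplied 88.2% and 92.5% of the summed FPKM of the 8 members in siScr cells and 99.0% and 98.9% in siZBP1 cells. The summed FPKM of the other 7 members was 203 and 212 in siScr cells and 48.0 and 48.1 in siZBP1 cells.

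**Figure D2:**
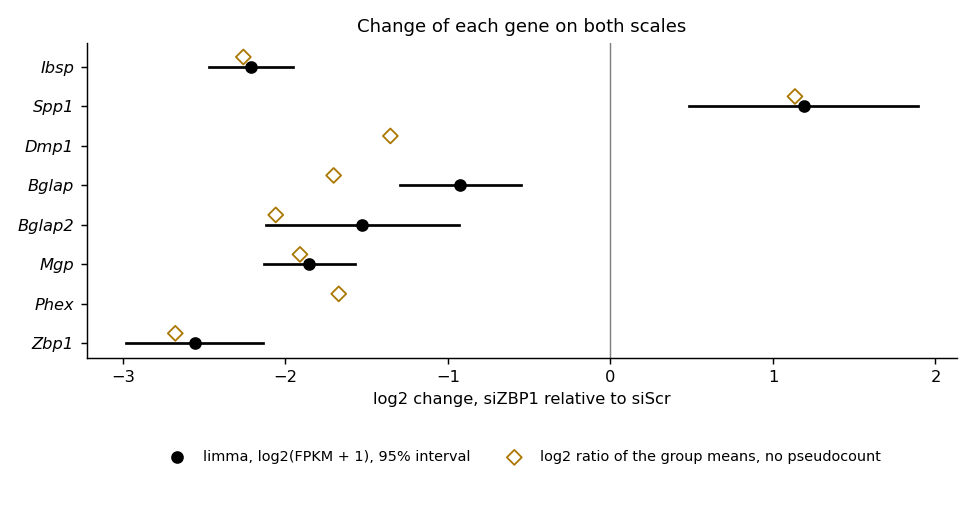
Log2 change in siZBP1 relative to siScr samples of the members with a signal and of Zbp1, as the limma estimate on log2(FPKM + 1) with its 95% interval and as the log2 ratio of the group means without a pseudocount. Spp1 is the only member above 0 on either scale, and among the tested members the scales differ most for Bglap, at -0.92 and -1.70. Dmp1 and Phex, which were not tested, have only the ratio.

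Markers of macrophages were higher in siZBP1 cells alongside Spp1. Of the 24 macrophage markers in the table, all were tested, 15 were higher, 1 was lower and 8 did not pass the test, with a median limma log2 fold change of 0.33 against 0.00 over all genes tested. Their summed FPKM was 15557 to 16984 in siScr cells and 20827 to 21719 in siZBP1 cells. Mrc1, the mannose receptor of tissue macrophages, rose from 36.5 and 48.9 to 102 and 103 FPKM, or by 1.25 on the log2 scale of limma (adjusted p = 0.00789). Lyz2, the lysozyme of myeloid cells, rose from 2814 and 3647 to 5871 and 5402 FPKM, or by 0.81 on the same scale (limma adjusted p = 0.0191). Lyz1, its close copy, rose by 0.82 on the same scale (limma adjusted p = 0.0235). Lgals3 was the marker that fell. Among widely used macrophage markers, Adgre1 and Mpeg1 had log2 fold changes of 0.12 and -0.01 and did not pass the test. Csf1r and Cx3cr1 had log2 fold changes of 0.28 and 0.70 and passed it. No marker of the list was at 0 in all samples. The part of macrophages in the rise of Spp1 was not tested.

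**Figure D3:**
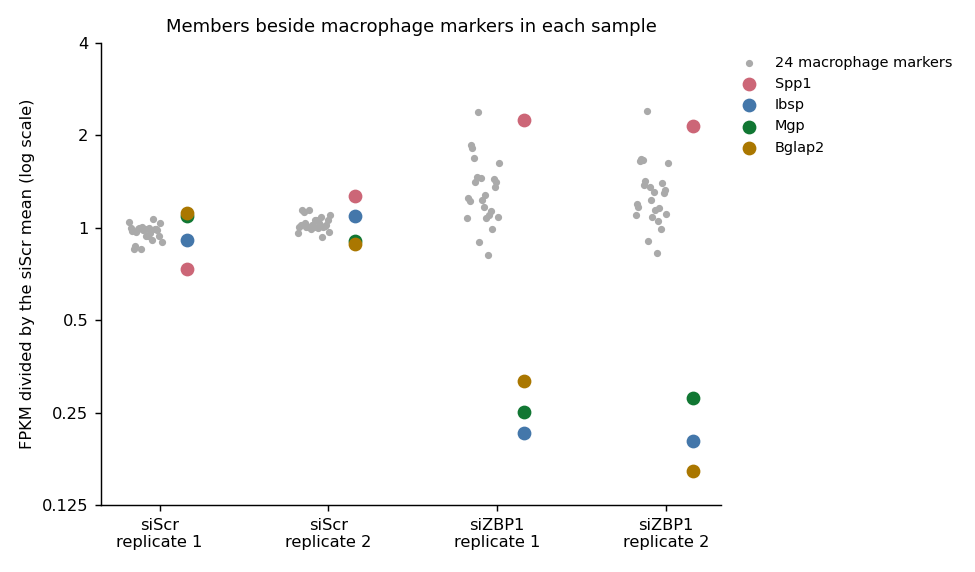
FPKM of 4 members and of the 24 macrophage markers in each of the 4 samples, divided by the siScr mean of each gene, on a log scale. In both siZBP1 samples Spp1 lies near the top of the markers, while Ibsp, Mgp and Bglap2 lie below all of them.

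The osteoclast markers showed no common direction, with 2 of 5 tested higher (Itgb3 and Atp6v0d2), 1 lower (Ctsk) and 5 of the 10 below the filter. Ocstamp and Calcr, which mark fused osteoclasts, were at 0.271 FPKM or less in every sample. Other markers of the list were well above the filter, with Atp6v0d2 at 51.7 to 79.8 FPKM and Ctsk at 26.5 to 43.1 FPKM over the samples.

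Dmp1 encodes dentin matrix protein 1, a SIBLING protein of late osteoblasts and osteocytes. It lies on chromosome 5 from 104202613 to 104214102 on the plus strand. Dmp1 was at 0.0639 and 0.835 FPKM in the siScr replicates and at 0.0221 and 0.329 FPKM in the siZBP1 replicates. The groups overlapped, and replicate 2 was over replicate 1 by 13.1 times in siScr cells and by 14.9 times in siZBP1 cells. On the estimated depth these values stand for roughly 2.5, 50.3, 0.7 and 17.2 fragments. Mean FPKM was 0.449 ± 0.545 (SD, n = 2) with siScr and 0.176 ± 0.217 (SD, n = 2) with siZBP1, so that a difference between the groups was not detectable. With the filter lowered to 0.1 FPKM, the log2 fold change of Dmp1 was -0.26 with a 95% interval from -1.04 to 0.52 (limma adjusted p = 0.579). The 1 FPKM added before log2 exceeds every value of Dmp1, so that this estimate and its interval understate the change. By the ratio of the means Dmp1 was 2.56-fold lower, or -1.35 on the log2 scale, which lies outside that interval.

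Mepe encodes matrix extracellular phosphoglycoprotein, which osteocytes secrete and which gives rise to a mineral-inhibiting peptide. It lies on chromosome 5 from 104325329 to 104338611 and was listed at 0 in all 4 samples. Dspp, the dentin SIBLING gene that completes the family, was also listed at 0 in all 4 samples. The osteocyte genes Sost, an inhibitor of Wnt signals, and Fgf23, a phosphate-lowering hormone, were listed at 0 as well.

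The 5 SIBLING genes lie within 270 kb on chromosome 5, in the order Dspp, Dmp1, Ibsp, Mepe and Spp1, all on the plus strand. Ibsp and Spp1, the members with abundant transcripts, are separated by 124 kb that hold Mepe, listed at 0, and they changed in opposite directions. Ibsp ended 13.9 kb before Mepe and began 85.1 kb after Dmp1. On the outer side of Spp1, Pkd2, which encodes a calcium channel, went from a mean of 28.0 to 35.0 FPKM a log2 difference of 0.31 (limma adjusted p = 0.0173). On the outer side of Dspp, Hsd17b11, a steroid dehydrogenase gene, went from a mean of 50.3 to 67.3 FPKM, a log2 difference of 0.41 (limma adjusted p = 0.00532), Sparcl1 stayed below the filter at 0.256 and 0.0663 FPKM on average, and Nudt9 had a log2 fold change of 0.16 (limma adjusted p = 0.130). Among the tested neighbours within 200 kb of the cluster, Ibsp was the only gene that fell.

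**Figure D4:**
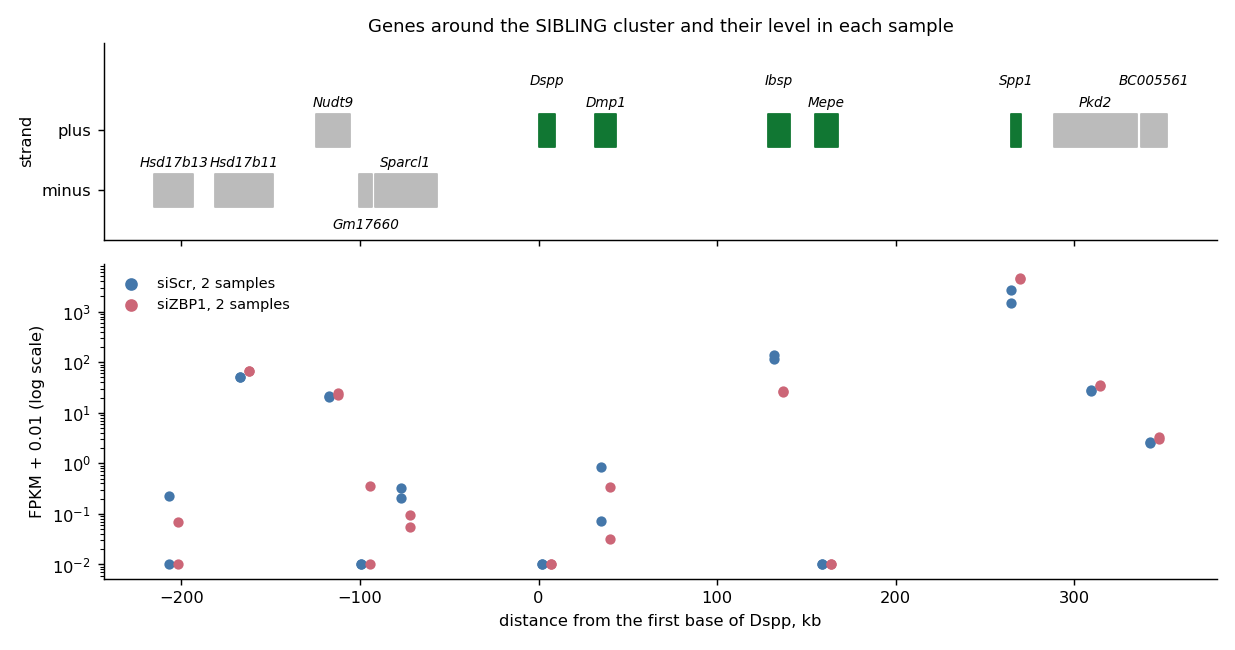
Protein-coding genes around the SIBLING cluster by their distance in kb from the first base of Dspp and by strand, above the FPKM of each gene in each sample on a log axis with 0.01 added. SIBLING genes are drawn in green, Mepe and Dspp sit at 0 in all samples, and Ibsp and Spp1 are the only cluster genes above 1 FPKM.

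Bglap and Bglap2 encode osteocalcin, the most abundant Gla protein of bone and a late osteoblast product. They lie on the minus strand of chromosome 3, Bglap from 88383501 to 88384464 and Bglap2 from 88377736 to 88378699, with 4.80 kb between them. Bglap was at 2.40 and 1.93 FPKM in the siScr replicates and at 0.606 and 0.723 FPKM in the siZBP1 replicates. Bglap2 was at 6.47 and 5.12 FPKM in the siScr replicates and at 1.84 and 0.940 FPKM in the siZBP1 replicates. For both genes every siZBP1 sample was below every siScr sample. On the estimated depth the values of Bglap stand for roughly 15, 18.5, 3 and 6 fragments and those of Bglap2 for 43.5, 52.5, 9.6 and 8.4, so that both calls rest on few fragments. Bglap was 3.26-fold lower by the ratio of the means, and its limma log2 fold change was -0.92 with a standard error of 0.14 (adjusted p = 0.0146). Bglap2 was 4.17-fold lower, and its limma log2 fold change was -1.53 with a standard error of 0.22 (adjusted p = 0.0133). The added pseudocount of 1 FPKM understates the change of genes at this level, which is why the limma values are smaller than the ratios.

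The osteocalcin genes are near-identical copies, so that their separate values are uncertain. The coding sequences of Bglap and Bglap2 differed at 4 of 285 aligned bases, which is an identity of 98.6%. Of the 50-base windows of the Bglap transcript, 74.7% occurred unchanged in Bglap2 or Bglap3, and of those of Bglap2, 88.2% occurred in Bglap or Bglap3. For Ibsp, Dmp1, Mepe and Mgp this share was 0, and for Spp1 it was 2.06%. Bglap3, the third copy, is expressed mainly outside bone and was at 0.168 and 0.0794 FPKM in siScr cells and at 0 and 0.0903 FPKM in siZBP1 cells. The summed FPKM of the 3 copies, which is less affected by how fragments were divided between Bglap and Bglap2 but depends on the length used for each copy, was 9.04 and 7.13 FPKM in siScr cells and 2.45 and 1.75 FPKM in siZBP1 cells. For this sum the limma log2 fold change was -1.55 with a standard error of 0.17 (adjusted p = 0.00725). In siScr cells Bglap2 supplied 71.7% of the sum.

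The RT-qPCR primers that the study lists for osteocalcin are shown at their closest site in each copy, because they bear on which copy such a measurement reads. The forward sites and then the reverse sites are given in the direction of the primer, with capitals at bases that differ from it.
Bglap forward: ctgacctcacagatgccaagc
Bglap2 forward: ctgacctcacagatgccaagc
Bglap3 forward: ctgacctcacagatgccaCgc
Bglap reverse: tggtctgatagctcgtcacaag
Bglap2 reverse: tggtctgatagctcgtcacaag
Bglap3 reverse: tggtTtgatagctcgtcacaag
Both primers matched Bglap and Bglap2 in full, with a product of 187 bases from each, and had 1 mismatch each against Bglap3. The primers for Ibsp matched Ibsp alone, with a product of 148 bases.

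Without siZBP1 replicate 1 or 2, the limma adjusted p of Bglap was 0.107 and 0.0908, and that of Bglap2 was 0.0748 and 0.0824. Leaving out siScr replicate 1 or 2 gave Bglap2 limma adjusted p values of 0.0803 and 0.0529, so that it missed the threshold there too.

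Mgp encodes matrix Gla protein, which keeps cartilage and vessel walls free of mineral. It lies on chromosome 6 from 136872435 to 136875823 on the minus strand. Mgp was at 77.9 and 64.9 FPKM in the siScr replicates and at 18.0 and 20.0 FPKM in the siZBP1 replicates. The replicates lay close together and the groups were far apart. Mean FPKM was 71.4 ± 9.20 (SD, n = 2) with siScr and 19.0 ± 1.47 (SD, n = 2) with siZBP1, which is 3.76-fold lower. By limma, the log2 fold change of Mgp was -1.85 with a standard error of 0.11 (adjusted p = 0.00279). Without siZBP1 replicate 1 or 2, its log2 fold change was -1.78 and -1.93, with limma adjusted p values of 0.0748 and 0.0608. Mgp, an inhibitor of mineral, thus fell together with Ibsp, which promotes it, while Spp1, the other inhibitor among the abundant members, rose. Of the markers of smooth muscle and pericytes, cells that also express Mgp, 4 of 5 tested were lower. Notch3 was higher, from 1.20 and 1.24 to 3.64 and 3.63 FPKM (limma log2 fold change of 1.06, adjusted p = 0.00583). Below the filter, Rgs5 and Des had higher and Myh11 lower means in siZBP1 cells. The summed FPKM of the list was 962 to 993 in siScr and 162 to 189 in siZBP1 cells. Acta2 alone was at 614 and 631 FPKM in siScr and at 110 and 129 FPKM in siZBP1 cells. Acta2, the actin of contractile cells, had a limma log2 fold change of -2.37 and Tagln one of -2.74, whereas Myh11, which defines smooth muscle, was at 0.516 FPKM or less in every sample. The part of such cells in the fall of Mgp was not tested. Among markers of chondrocytes, another known source of Mgp, Col2a1 fell (limma log2 fold change of -2.13, adjusted p = 0.0131). Col2a1 passed the filter only through its level in siScr cells, which limits this call. Col10a1 and Sox9 had limma log2 fold changes of 0.52 and -0.05 and did not pass the test, and Acan was at 0.032 FPKM or less.

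Phex lies on chromosome X from 157162075 to 157415312 on the minus strand. Phex was at 0.387 and 0.297 FPKM in the siScr replicates and at 0.0573 and 0.158 FPKM in the siZBP1 replicates. The groups did not overlap, and the mean was 3.19-fold lower in siZBP1 cells. On the estimated depth these values stand for roughly 34.6, 40.5, 4 and 18.6 fragments. With the filter lowered to 0.1 FPKM, the log2 fold change of Phex was -0.28 with a 95% interval from -0.53 to -0.03 (limma adjusted p = 0.109), so that it did not pass the adjusted threshold. The 1 FPKM added before log2 exceeds every value of Phex, so that this estimate and its interval understate the change. The log2 ratio of the means was -1.67, outside that interval.

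In order of level, the members ran Spp1, Ibsp, Mgp, Bglap2, Bglap, Dmp1, Phex and Mepe in both groups. Neighbours in this order did not overlap in their replicate values, except Dmp1 and Phex, which overlapped in both groups.

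The enzymes that act on these proteins did not share one direction. Of 14 tested, 6 were higher, 3 were lower and 5 did not pass the test, with a median log2 fold change of 0.14. Fam20c, the kinase that phosphorylates SIBLING proteins, rose from 22.2 and 22.4 to 31.9 and 30.0 FPKM (limma log2 fold change of 0.46, adjusted p = 0.00821). Ggcx, the carboxylase of osteocalcin and MGP, was at 16.0 and 15.6 against 16.6 and 17.6 FPKM (limma log2 fold change of 0.11, adjusted p = 0.221). Mmp3, a protease that cleaves osteopontin, rose from 0.0828 and 1.00 to 10.3 and 9.95 FPKM (limma log2 fold change of 2.92, adjusted p = 0.00686). Mmp3 passed the filter only through its level in siZBP1 cells, which limits this call. Tgm2, which cross-links osteopontin, had a log2 fold change of 0.94 (limma adjusted p = 0.00463), and Ctsk, a collagen-degrading protease, had one of -0.60 (limma adjusted p = 0.00543).

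Among the receptors for RGD motifs or osteopontin, 5 of 9 tested were higher, 2 were lower and 2 did not pass the test, with a median log2 fold change of 0.38. Itgb3 and Itgav, which pair as the classical osteopontin receptor, both rose. Itgb3 went from 5.41 and 8.44 to 12.9 and 12.9 FPKM (limma log2 fold change of 0.84, adjusted p = 0.0380). Itgav went from 109 and 113 to 151 and 151 FPKM (limma log2 fold change of 0.44, adjusted p = 0.00524). Cd44, the hyaluronan receptor that also binds osteopontin, fell from 90.0 and 88.7 to 69.5 and 69.9 FPKM (limma log2 fold change of -0.35, adjusted p = 0.00695). Itgb8 had a log2 fold change of 0.69 and Itga5, the fibronectin receptor chain, one of -0.46, and both passed the test. Itgb8, at 0.701 and 0.617 against 1.90 and 1.46 FPKM, passed the filter only through siZBP1 cells.

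**Figure D5:**
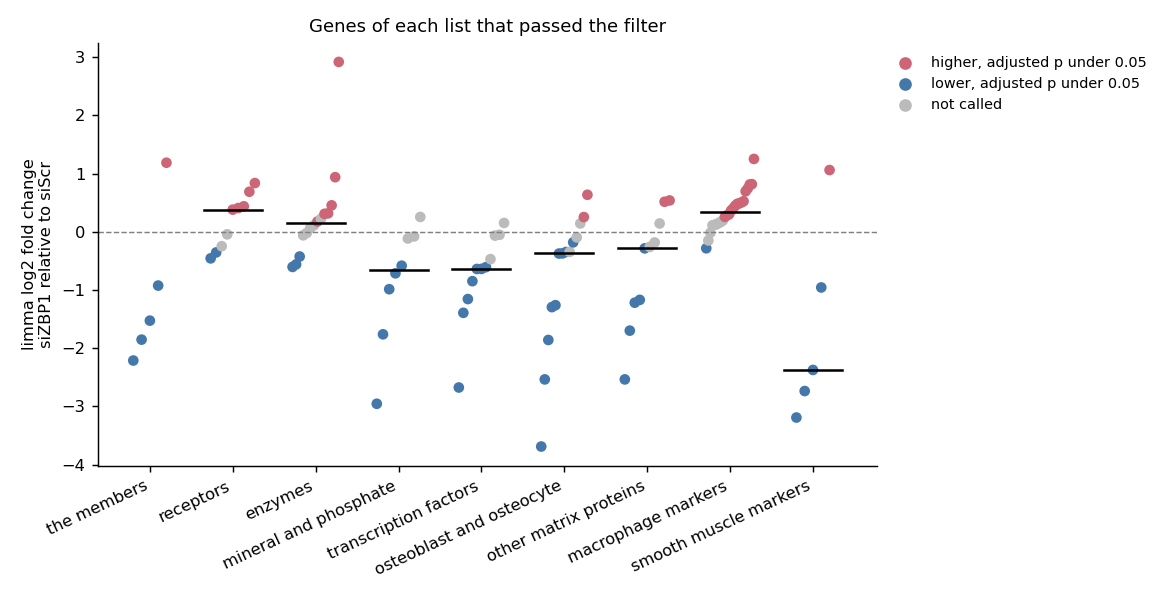
Limma log2 fold change of the tested members and of the tested genes of 8 lists, each point 1 gene, coloured by its call, with a bar at the median of each list and a dashed line at the median of all genes. Transcription factors and mineral-handling genes lie at or below 0 but for a few uncalled genes, whereas receptors and macrophage markers lie mostly above it.

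Genes of mineral and phosphate handling were lower where they passed the test. Of 8 tested, 5 were lower, none was higher by limma (0 at an unadjusted p under 0.05) and 3 did not pass, with a median log2 fold change of -0.65. Alpl, the phosphatase that degrades the inhibitor pyrophosphate, fell from 243 and 157 to 25.7 and 23.0 FPKM (limma log2 fold change of -2.96, adjusted p = 0.00388). Smpd3 and Phospho1, which act in matrix vesicles, had log2 fold changes of -1.76 and -0.99, and both passed the test. Smpd3 was at 3.67 and 3.28 FPKM in siScr and at 0.343 and 0.295 FPKM in siZBP1 cells. Phospho1 was at 2.59 and 2.33 against 0.941 and 0.571 FPKM. Both passed the filter only through their level in siScr cells.

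Of 11 osteoblast transcription factors tested, 7 were lower, none was higher by limma (0 at an unadjusted p under 0.05) and 4 did not pass the test, with a median log2 fold change of -0.64. Sp7, required for osteoblast maturation, fell from 34.6 and 22.9 to 3.33 and 3.82 FPKM (limma log2 fold change of -2.68, adjusted p = 0.00401). Runx2 fell from 13.9 and 11.4 to 6.91 and 6.22 FPKM (limma log2 fold change of -0.85, adjusted p = 0.0110). Dlx5 and Dlx6, homeobox activators of bone genes, had log2 fold changes of -1.39 and -1.16, and both passed the test. Dlx6, at 3.26 and 2.60 against 0.859 and 0.664 FPKM, passed the filter only through siScr cells.

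Of 14 osteoblast and osteocyte genes tested, 9 were lower, 2 were higher and 3 did not pass the test, with a median log2 fold change of -0.36. Panx3, a channel of osteoblasts, fell from 17.8 and 14.7 to 0.269 and 0.396 FPKM (limma log2 fold change of -3.69, adjusted p = 0.00155). Panx3 passed the filter only through its level in siScr cells. Omd, osteomodulin, and Pth1r, the receptor of parathyroid hormone, had log2 fold changes of -2.54 and -1.86, and both passed the test. Of 10 other non-collagen matrix proteins tested, 5 were lower, 2 were higher and 3 did not pass, with a median log2 fold change of -0.27. Omd, Dcn (decorin, -1.70) and Postn (periostin, -1.22) had the largest changes on the log2 scale, and all 3 passed the test. Among mesenchymal markers, 4 of 12 tested were lower, 1 was higher and 7 did not pass, with a summed FPKM of 1128 to 1244 in siScr cells and 1022 to 1031 in siZBP1 cells. Cxcl12, the chemokine of marrow stroma, had a log2 fold change of -2.81, Nt5e one of 2.16 and Pdgfra, which did not pass, one of -0.70.

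Among 3 tested chondrocyte markers 1 was lower (Col2a1), and Col10a1 and Sox9 had log2 fold changes of 0.52 and -0.05. Of 3 tested markers of adipocytes and endothelium, Lpl rose (limma log2 fold change of 0.25, adjusted p = 0.0373), and Kdr and Fabp4 had log2 fold changes of 0.22 and 0.20. Of the markers of other blood cells only S100a8 could be tested (limma log2 fold change of 1.11, adjusted p = 0.239). Of 7 reference genes, Rpl13a was lower at -0.26, Gapdh was higher at 0.22 and the others, with Ppia at -0.15, did not pass the test, all smaller than the change of any tested member.

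The genes with the most similar profile were found for each tested member by the distance between log2(FPKM + 1) values centred on each gene, over the 4 samples and 11959 genes. With so few samples such likeness mainly reflects the fold change. For Spp1 these were Cd33, a sialic acid receptor of myeloid cells, Ccbe1 and Adamts4, at distances of 0.062, 0.214 and 0.238. Cd33 was at 13.0, 22.1, 40.2 and 38.0 FPKM. Its likeness to Spp1, also between the siScr replicates, follows from being picked by this distance and is no separate result. For Ibsp they were Tgfb3, Bmp4 and Lmod1, at distances of 0.229 to 0.289. For Mgp they were Adgrf5, Gsta4 and Slc7a1, at distances of 0.045 to 0.095. For Bglap they were Unc5b, Phldb2 and Ddr1, and for Bglap2 they were E130310I04Rik, Adm and Plb1, at distances of 0.048 to 0.173.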

How the data were processed

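RNA-seq of mBMSCs was analysed, with 2 siScr and 2 siZBP1 samples. The authors deposited FPKM per gene and sample. Their methods give TruSeq libraries, Tophat mapping to mm10 and extraction with HTSeq, whereas the submitters' processing notes name TopHat and Cufflinks. Annotation, filters and which siRNA was used are not given in the sources used here. FPKM hold no read counts, so no counting error was computed, and fragment numbers were estimated only roughly from the spacing of low values.

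Members and gene lists were chosen with earlier results of these data known. Limma (version 3.58.1, R 4.3.3, variance trend) was applied two-sided to log2(FPKM + 1) wherever the mean over the samples reached 1 FPKM. Genes such as Smpd3, Phospho1, Dlx6, Panx3 and Col2a1 reached it only through siScr cells, and Mmp3 and Itgb8 only through siZBP1 cells. The list counts include such genes and are limited by this. With 2 samples against 2, an exact permutation test cannot give p below 0.333. The genes named in each list were the 3 tested genes with the largest absolute change, with Runx2, Sp7, Alpl, Fam20c, Ggcx, Itgav and Cd44. Chosen after their values were seen were Sost, Fgf23, Col1a2, Lepr, Atp6v0d2, Ocstamp, Calcr, Adgre1, Mpeg1, Lgals3, Myh11 and Acan. The same holds for Csf1r, Cx3cr1, Itgb1, Col3a1, Pdgfrb, Notch3, Rgs5, Des and the neighbours of the members. Gene models and transcripts were from GENCODE M21 and promoters from RefSeq. The table has 27 gene symbols turned into dates. Python 3.11.15, numpy 2.4.6, pandas 2.3.3, and matplotlib 3.10.9 were used, with Biopython for alignment. Settings for filter, pseudocount, scaling, variance, replicate block and left-out samples were varied. The limma script was tested on simulated data. Protein sequences were not used here.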

Additional observations from a re-analysis of the deposited data

How the results depend on the processing

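Over 12 other settings with all samples (11 for Bglap and Bglap2, which are below a filter of 5 FPKM), Ibsp, Mgp, Bglap and Bglap2 remained lower past the threshold, and no member changed direction in any setting. Spp1 remained higher, but its limma log2 fold change missed the threshold with no filter (1.19, adjusted p = 0.0613), quantile normalization (0.97, 0.0902), no variance trend (1.19, 0.0558) and a robust variance (1.19, 0.159), so that 0 members were called higher there. With a filter of 5 FPKM, 2 members were called lower because fewer were tested. With samples left out in turn, the log2 fold change was -2.34 to -2.08 for Ibsp, 0.79 to 1.58 for Spp1, -1.98 to -1.72 for Mgp, -1.03 to -0.82 for Bglap, -1.80 to -1.25 for Bglap2 and -2.79 to -2.33 for Zbp1. The ratio of the group means without a pseudocount gave -1.70 for Bglap and -2.06 for Bglap2 on the log2 scale. These fits take the spread of a lone sample from the remaining pair. The cause of the lost calls was not tested.

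Left-out samples gave 23 to 1297 genes lower and 22 to 1019 higher, 0 to 3 members lower and 0 to 1 higher. For the lists they gave 0 to 3 receptors higher and 0 to 2 lower, 0 to 4 enzymes higher and 0 to 3 lower, 0 to 4 mineral genes lower, 0 to 7 transcription factors lower, 1 to 8 osteoblast genes lower and 0 to 2 higher, 0 to 6 other matrix proteins lower and 0 to 2 higher, 0 to 15 macrophage markers higher and 0 to 1 lower, 0 to 6 mesenchymal markers lower and 0 to 2 higher, 0 to 2 osteoclast markers higher and 0 to 1 lower, 0 to 1 chondrocyte markers lower, 3 to 4 smooth muscle markers lower and 0 to 1 higher, 0 adipocyte and endothelial markers higher, and 0 to 1 reference genes in each direction. With all samples, list counts past 1.5 times were 3 enzymes higher with no filter. With a filter of 5 FPKM they were 3 mineral genes and 4 transcription factors lower, 0 chondrocyte markers lower, 0 smooth muscle markers higher, and 2 macrophage markers and 2 reference genes lower. Osteoblast genes higher came to 1 with no filter or TPM scaling and 0 with no variance trend. Macrophage markers lower came to 0 with no filter, quantile normalization or no variance trend and to 2 with a robust variance. Osteoclast markers higher came to 1 with no filter or no variance trend, and chondrocyte markers higher to 1 with a robust variance or without small RNA genes. Adipocyte and endothelial markers higher came to 0 with no filter, TPM scaling or no variance trend and to 2 without small RNA genes or with the replicate block. Reference genes lower came to 2 with a pseudocount of 0.1, a robust variance or without small RNA genes and to 0 with no filter, quantile normalization or no variance trend, and reference genes higher to 0 with no filter, no variance trend or the replicate block.

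No source pairs the replicates of the same number, and the deviations of the samples numbered 1 correlated at -0.063 over 11959 genes. Whether such replicates share a mouse, culture or batch is not known, and a correlation over all genes cannot decide it. With the replicate block 1654 genes were lower and 1465 higher, and the log2 fold changes of the members kept their values, with adjusted p of 0.00116 for Ibsp, 0.0199 for Spp1, 0.0212 for Bglap, 0.0041 for Bglap2 and 0.00189 for Mgp by limma, so that no member's call changed. By the estimated depth, the values of Dmp1, Phex, Bglap and Bglap2 rest on few fragments. For Dmp1, replicate 2 was over replicate 1 by 13.1 times in siScr and 14.9 times in siZBP1 cells. The estimated depth was 14 and 22 M fragments in the siScr replicates and 11 and 19 M in the siZBP1 replicates. The cause of the gap in Dmp1 was not tested.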
